A study of Homo sapiens with 18 samples.

Results

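The 81 genes described here encode the proteins of the cytosolic ribosome, 49 of the large subunit and 32 of the small subunit. They were taken by symbol from the 58735 genes counted: protein-coding genes named RPL or RPS with a number and at most 1 letter A, X or L, together with RPLP0, RPLP1, RPLP2 and RPSA. The rule uses no measured value. Their mRNA level was followed in A549 and H358, 2 human cell lines from lung adenocarcinoma, after the amount of RAD21 had been changed; RAD21 is a core subunit of cohesin, the ring complex that entraps DNA and shapes chromosome loops.

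The 6 groups held 3 libraries each, 18 in all. RAD21 was knocked down with lentiviral short hairpin RNA in A549 and in H358 (shRAD21), and each line had a control given an empty vector (shNC). RAD21 was overexpressed in A549 (RAD21OE), with an empty-vector control (EV). The controls are labelled wild type, and all cells grew in the same serum-supplemented medium. The labels place the overexpression in a later batch than the knockdown, so it was analysed apart. The sources used here do not give the number of hairpins, or whether cells were cloned or pooled. Nothing says that the 3 libraries of a group came from separate cultures, so a p-value here measures spread among libraries that may be only technical.

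Ribosomal proteins are made in equal proportions, since each ribosome holds nearly all of them once. The large subunit forms peptide bonds and holds the exit tunnel of the new protein, and the small subunit reads the mRNA. Most of these mRNAs start with an unbroken run of pyrimidines (a 5′ terminal oligopyrimidine tract), through which the kinase mTOR and the RNA-binding protein LARP1 control how much of the mRNA is translated. That control acts on translation, which counts of mRNA do not measure. Several members have duties outside the ribosome: RPL5 and RPL11, with the 5S ribosomal RNA, bind the ubiquitin ligase MDM2.

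The RefSeq promoter table (GRCh38.p14) holds 64 of the 81 genes. A C at the annotated start followed by at least 4 pyrimidines (C or T), read on the gene's own strand, stood in 42 of the 64 (65.62%), against 4.07% of all 35116 promoters in the table. It was found in 64.1% of the large-subunit and 68.0% of the small-subunit genes. Allowing the run to begin within 5 bases of the annotated start gave 78.12% of the members and 21.1% of all promoters. The windows below run from 30 bases before the annotated start to 20 bases from it onward, and show members whose values carry the results, with RPS27L beside RPS27 because they differ at the start. Capitals mark the unbroken run of C and T that includes the annotated first base. The windows lie at chrX:101390981-101391030 (plus strand, RPL36A), chr5:82278335-82278384 (minus, RPS23), chr11:809937-809986 (plus, RPLP2), chr19:54200828-54200877 (plus, RPS9), chr1:6199576-6199625 (minus, RPL22), chr4:151099598-151099647 (plus, RPS3A), chr9:127451387-127451436 (minus, RPL12), chr1:153990732-153990781 (plus, RPS27) and chr15:63157458-63157507 (minus, RPS27L).
RPL36A: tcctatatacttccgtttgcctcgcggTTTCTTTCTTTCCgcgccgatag
RPS23: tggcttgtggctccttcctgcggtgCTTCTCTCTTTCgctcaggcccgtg
RPLP2: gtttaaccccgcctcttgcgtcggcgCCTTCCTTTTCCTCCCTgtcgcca
RPS9: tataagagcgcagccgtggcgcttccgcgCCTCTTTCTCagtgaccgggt
RPL22: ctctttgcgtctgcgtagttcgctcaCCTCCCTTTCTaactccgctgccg
RPS3A: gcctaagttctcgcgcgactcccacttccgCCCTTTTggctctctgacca
RPL12: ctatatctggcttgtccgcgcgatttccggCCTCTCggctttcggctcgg
RPS27: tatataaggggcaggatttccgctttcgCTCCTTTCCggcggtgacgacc
RPS27L: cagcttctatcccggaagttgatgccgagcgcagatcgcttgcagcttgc
The run is present at the start of RPS23, which rose in a comparison below, and of RPLP2, RPS9 and RPL22, which fell. RPS27L has no such run at its annotated start.

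Totals were 15155077 to 19277568 counts per library in the knockdown and 13024640 to 14276335 in the overexpression. RAD21 itself stood at 128.9, 131.8 and 101.1 CPM (counts scaled to a common library size with TMM factors) in A549 shRAD21 and 256.9, 252.9 and 254.6 CPM in A549 shNC. It stood at 378.8, 427.0 and 432.6 CPM in H358 shRAD21, against 568.8, 588.8 and 602.8 CPM in H358 shNC, a smaller reduction. In RAD21OE it reached 1520, 1501 and 1306 CPM, against 195.3, 208.6 and 194.4 CPM in EV. Replicate 3 of A549 shRAD21 and replicate 3 of RAD21OE stood apart from their groups: the median absolute log2 difference over all genes between them and the other replicates of the group was 0.313 and 0.304, and 0.269 and 0.231, while every other pair of replicates lay between 0.106 and 0.146. Values of members that rest on these libraries are given without them below, and those of other genes are not. The summed level of 5 epithelial markers was 11300 to 14000 CPM in A549 shRAD21 and 7120 to 7550 in A549 shNC, 4600 to 4790 in H358 shRAD21 and 4510 to 4810 in H358 shNC, and 10400 to 13600 in RAD21OE and 8230 to 8430 in EV; its part in the results was not tested. In A549 shNC that sum was mostly KRT8 (4680 CPM) and KRT18 (2570 CPM), with CDH1 at 66.7, KRT19 at 8.79 and EPCAM at 3.65 CPM. KRT8 and KRT18 were higher in RAD21OE than in EV, and the other epithelial markers were lower. The 5 lung markers (NKX2-1 and the surfactant-related genes) summed to only 1.67 to 3.04 CPM in any A549 group and to 116.0 to 165.0 CPM in H358. The H358 sum was mostly NKX2-1, at 155 CPM in shRAD21 and 121 CPM in shNC. SFTPB, SFTPC and SFTPD averaged at most 0.115 CPM there, and NAPSA 2.15 and 1.63 CPM. Haematopoietic markers summed to at most 2.49 CPM endothelial markers to at most 5.66 CPM and fibroblast markers to between 15.4 and 47.4 CPM in any library.

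Of the 81 members, 80 were tested in each comparison. The exception, RPL10L, a retrogene copy of RPL10 known from testis, had 0 counts in all 18 libraries, which allows up to 0.015 CPM over the 12 knockdown libraries and 0.0367 CPM over the 6 others (3 counts of the total, counting error only). RPL3L and RPS10 had fewer than 100 counts in every library. The members together held 3.95% ± 0.24 of all counts in A549 shRAD21 and 4.26% ± 0.19 in A549 shNC, 3.87% ± 0.16 in H358 shRAD21 and 4.08% ± 0.18 in H358 shNC, and 4.51% ± 0.26 in RAD21OE and 4.48% ± 0.13 in EV (SD, n = 3 each). Mitochondrially encoded genes took 5.34% to 5.76% of counts in RAD21OE and 7.87% to 8.51% in EV, and without them the members held 4.78% ± 0.27 in RAD21OE and 4.88% ± 0.13 in EV, which turns the order. In bulk RNA, fewer cells of a type and less RNA per cell cannot be told apart, and a level is a share of the library, not an amount per cell. Per kilobase of merged exons, RPL13A led in every A549 group, at 765.0 CPM per kilobase in shRAD21 and 907.0 in shNC, and RPL8 led in H358, at 797.0 in shRAD21 and 788.0 in shNC. By CPM alone, not corrected for length, RPL4 led in A549 with 2377 in shRAD21 and 2460 in shNC.

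None of the 80 members differed by 1.5-fold or more in the A549 knockdown. That size was reached by 23.3% of all genes tested and by 7.03% of genes with a mean of at least 100 CPM. In H358 1 member differed by that much, the scarce RPL3L, and with overexpression 1 did, the scarce RPS10, and neither passed the test. Over all genes the shares were 12% and 16.2%, and among genes with a mean of at least 100 CPM 2.19% and 5.63%. These counts rest on single libraries: without A549 shRAD21 replicate 3, RPLP2 (-0.67), RPS9 (-0.60), RPL35 (-0.60) and RPS2 (-0.59) were past 1.5-fold in the A549 knockdown, and without A549 shNC replicate 2 RPL36A was (0.59). With overexpression none was without EV replicate 2, RPL3L was as well as RPS10 without RAD21OE replicate 1 or 2, and RPS27L was without RAD21OE replicate 1. RPL35 and RPS2 belong to the role groups below, and their values without A549 shRAD21 replicate 3 were picked out after they were seen. Of the 80, 58 lay within 0.2 log2 units of no change in the A549 knockdown, 67 in the H358 knockdown and 66 with overexpression. A member counts as higher or lower here at a Benjamini-Hochberg adjusted p under 0.05 from edgeR's quasi-likelihood test, over all genes tested in the comparison. In all, 24 members passed in at least 1 of the 3 comparisons and 56 in none. Among genes with a mean of at least 100 CPM, where small changes are easiest to detect, 16.2% of the members passed in A549, 10.3% in H358 and 6.94% with overexpression, against 38.4%, 16.4% and 40.2% of all such genes.

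**Figure D1:**
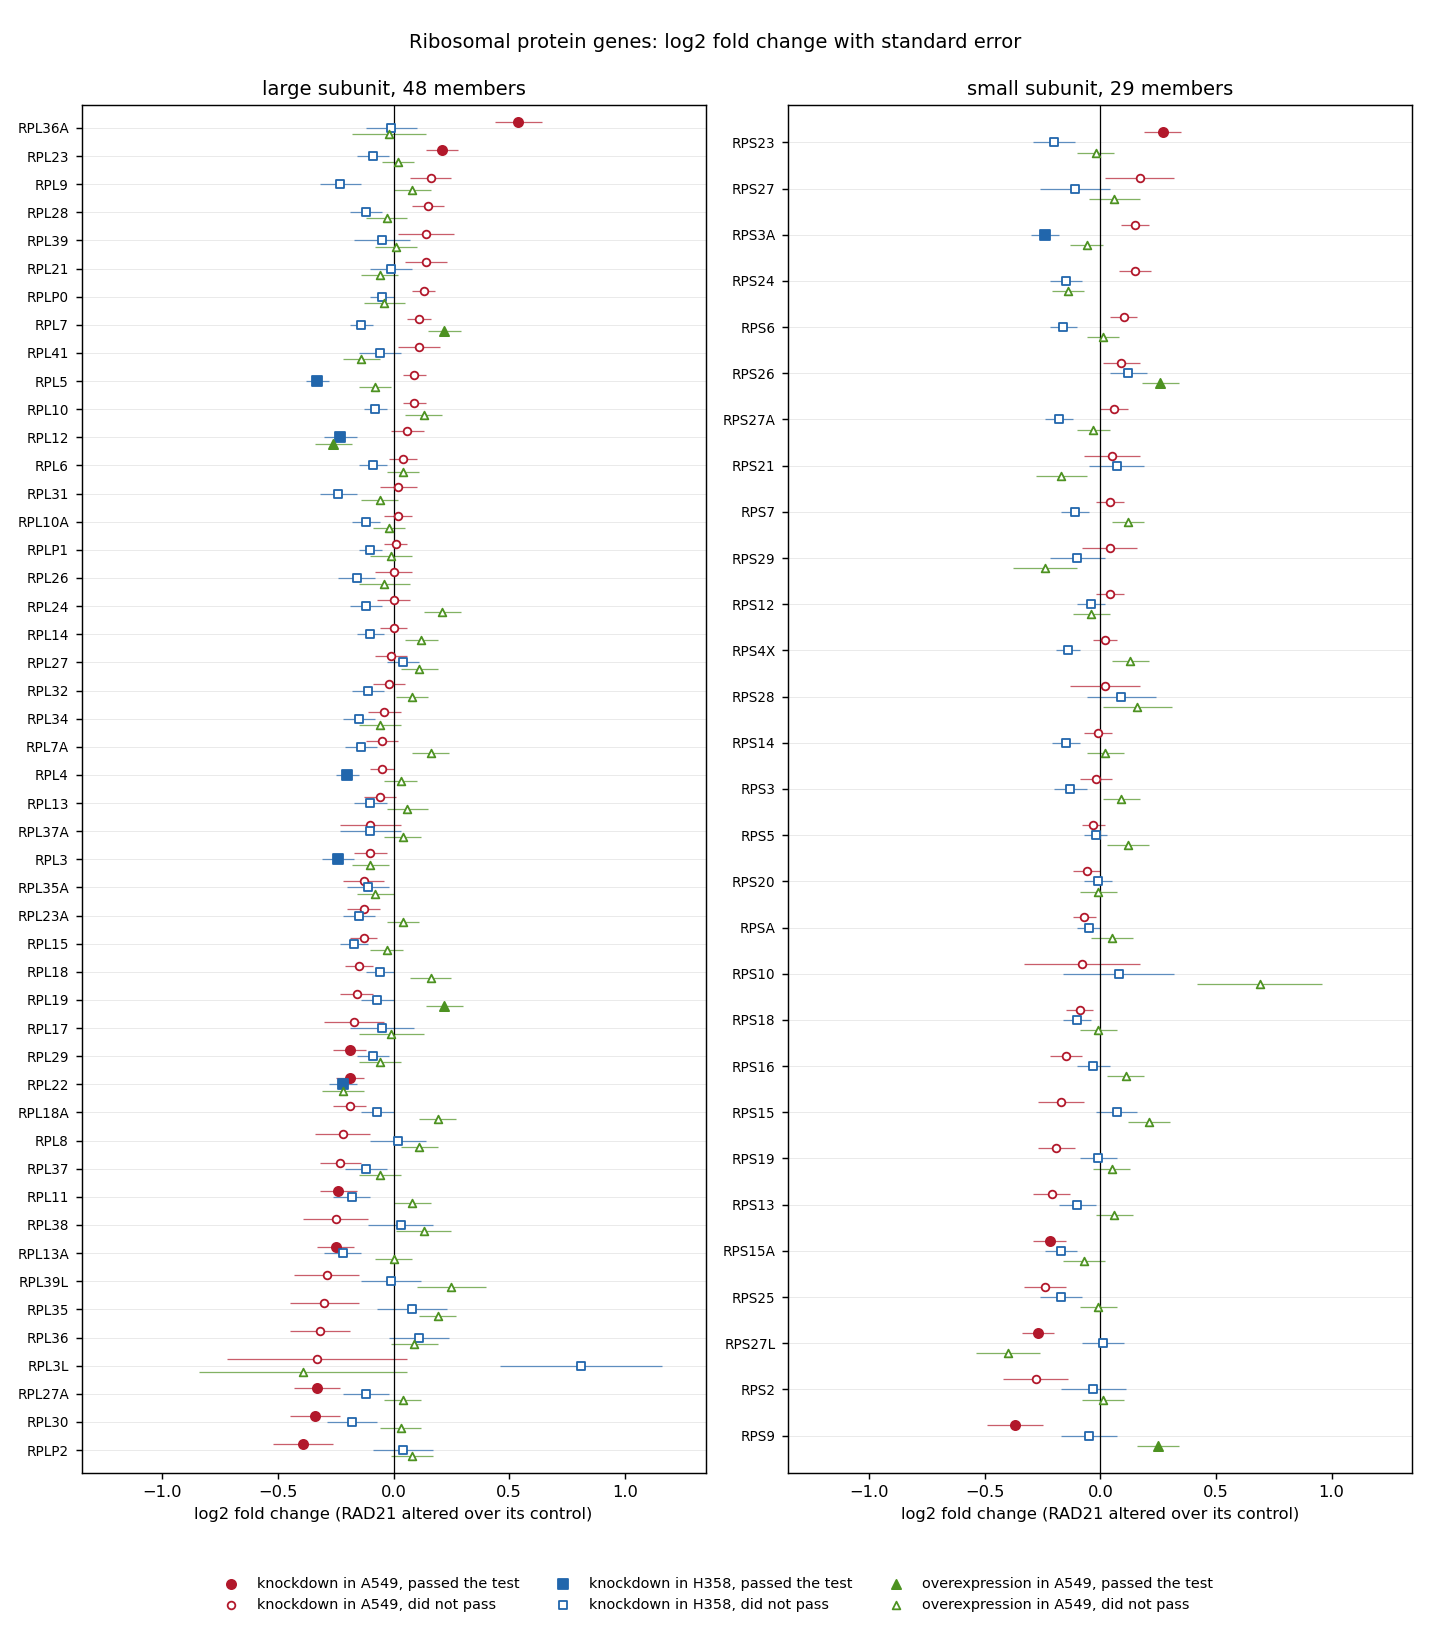
Log2 fold change (horizontal axis, RAD21 altered over its control) of 77 of the 80 members tested, each with its standard error, in 3 comparisons of 3 libraries a group; filled symbols passed the test. Most points lie within 0.2 log2 units of 0, RPL36A stands out at 0.54 in the A549 knockdown and RPL5 at -0.33 in the H358 knockdown, and the wide bars of RPL3L and RPS10 belong to genes with under 100 counts in every library.

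In the A549 knockdown 3 members rose and 11 fell, 17.5% of the 80, against 25.2% of all genes tested. By direction, 3.75% of the members rose and 13.8% fell, against 14.4% and 10.9% of all genes. The libraries of 6 members (7.5%) lay wholly above their controls and those of 9 (11.2%) wholly below, against 18.3% and 14.4% of all genes. The median log2 fold change of the members was -0.049 and that of all genes 0.005. RPL36A, a large-subunit protein at the site from which spent tRNA leaves, rose most, and RPS23, a protein of the decoding centre, and RPL23, a protein at the face between the subunits that also binds MDM2, rose as well. The largest falls were those of RPLP2, a stalk protein that recruits elongation factors, and of RPS9, at the entry of the mRNA channel.

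RPL36A (ENSG00000241343, chrX:101390824-101396154, plus strand, GRCh38) stood at 22.32, 22.03 and 21.74 CPM in A549 shRAD21 and at 15.62, 16.13 and 13.60 CPM in A549 shNC. The 3 knockdown libraries lay close together and all above the controls, and the log2 fold change was 0.54 ± 0.10 (SE), adjusted p = 0.000708. These values rest on 319 to 365 counts a library in shRAD21 and 192 to 256 in shNC. The gene shares 8.4% of its exon sequence with the read-through gene RPL36A-HNRNPH2, and the neighbour HNRNPH2 had a log2 fold change of 0.03 (adjusted p = 0.833). RPS23 stood at 147.8, 143.1 and 153.5 CPM in A549 shRAD21 and at 121.3, 129.1 and 117.3 CPM in A549 shNC, without overlap. Its log2 fold change was 0.27 ± 0.08, adjusted p = 0.0218. RPL23 had 577.5, 537.0 and 485.4 CPM in A549 shRAD21, against 468.2, 475.5 and 441.8 CPM in A549 shNC, a log2 fold change of 0.21 ± 0.07, adjusted p = 0.039. Its lowest knockdown library, replicate 3, lay just above the highest control.

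RPLP2 stood at 232.1, 231.0 and 379.6 CPM in A549 shRAD21 and at 382.3, 382.3 and 337.1 CPM in A549 shNC. Replicates 1 and 2 of the knockdown were low and replicate 3 was among the controls. The log2 fold change was -0.39 ± 0.13 (adjusted p = 0.0401), and -0.67 without shRAD21 replicate 3. RPS9 had the same layout, with 427.5, 420.1 and 647.5 CPM in A549 shRAD21 and 669.6, 658.5 and 603.7 CPM in A549 shNC. Its log2 fold change was -0.37 ± 0.12 (adjusted p = 0.0263), and -0.60 without that library. RPL30, RPL27A and RPL11 also fell with overlapping groups, by 0.34, 0.33 and 0.24 on the log2 scale, and by 0.52, 0.48 and 0.37 without shRAD21 replicate 3. Since exons of RPL30 overlap a gene on the other strand over 21.63% of their length and the strand setting of the counts is not given, its reads and those of the partner cannot be told apart.

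RPS27L, the paralogue of RPS27, fell by 0.27 ± 0.07 on the log2 scale (adjusted p = 0.0103). RPL22, an RNA-binding protein of the large subunit, stood at 118.6, 119.8 and 116.6 CPM in A549 shRAD21 and at 135.4, 135.2 and 133.9 CPM in A549 shNC. Both groups were tight and did not overlap; the log2 fold change was -0.19 ± 0.06, adjusted p = 0.0242. The remaining 3 that fell, RPL13A, RPS15A and RPL29, had log2 fold changes of -0.25, -0.22 and -0.19 and were named after their values were seen; the overlaps of RPL13A with other genes on its strand take 17.31% of its exons.

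Which members passed in A549 depended on single libraries. Without shRAD21 replicate 3, 14 members rose and 34 fell, and 43.0% of all genes passed in either direction. Without shNC replicate 1 or 3 only 1 member rose, and without shNC replicate 1 or 2 or shRAD21 replicate 1 or 2 only 2 fell. In those fits 17.6% to 19.3% of all genes passed. Without shRAD21 replicate 1 or 2, or shNC replicate 1 or 2, the calls of RPLP2, RPS9, RPL27A, RPL11 and RPL13A were lost, with adjusted p up to 0.193, 0.139, 0.132, 0.199 and 0.133. The calls of RPL30, RPL22, RPL23, RPS15A and RPL29 were lost without these 4 and also without shNC replicate 3 (adjusted p up to 0.138, 0.0772, 0.196, 0.102 and 0.285). RPS23 lost its call without shNC replicate 1 or 3 (up to 0.096). RPL36A and RPS27L were called with any 1 library left out, with adjusted p no higher than 0.00755 and 0.0499, and also under every other alternative tried. With GC content and length corrected, 12 members rose and 15 fell, where 29.4% of all genes passed in either direction. RPL36A still rose (0.43), but RPS23 (0.18, adjusted p = 0.0605) and RPL23 (0.09, 0.194) did not pass, nor did RPL13A (-0.06, 0.259) and RPL29 (0.01, 0.962). RPLP2 and RPS9 fell by less, at -0.18 and -0.20.

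**Figure D2:**
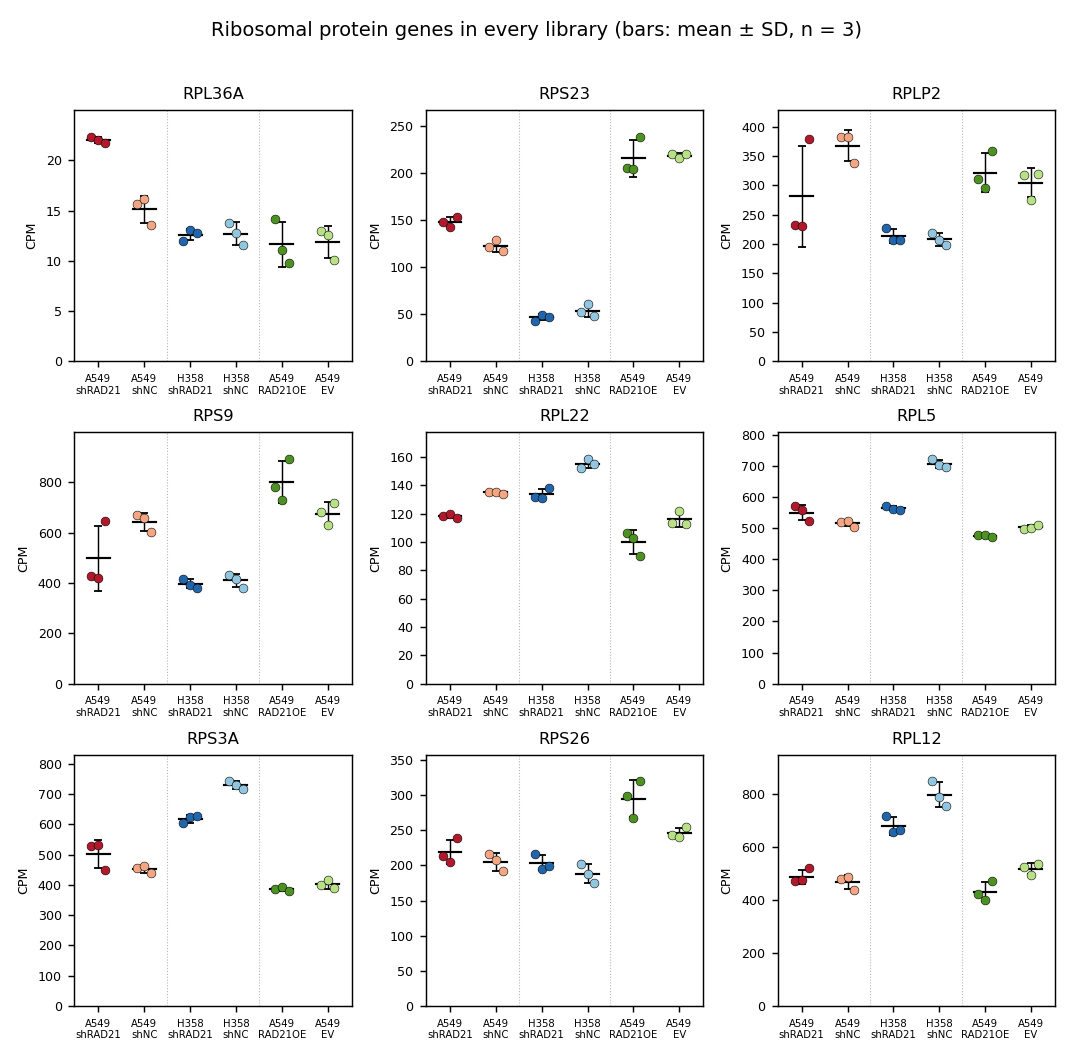
CPM in every library (points), with the mean (long line) and SD (bars) of each group of 3, for 9 members that passed the test in at least 1 comparison; the axes start at 0. RPL36A in A549 shRAD21 and RPL5 in H358 shRAD21 are clear of their controls, whereas RPLP2 and RPS9 in A549 shRAD21 have 1 library, at 379.6 and 647.5 CPM, among the controls.

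In the H358 knockdown 1 member rose and 7 fell, 10.0% of the 80, against 8.4% of all genes tested. By direction, 1.25% rose and 8.75% fell, against 3.78% and 4.62% of all genes. The median log2 fold change was -0.102 for the members and 0 for all genes, with 66 of the 80 below 0. The libraries of 25 members (31.2%) lay wholly below their controls and those of 1 wholly above, against 18.1% and 18% of all genes. RPL5, which with RPL11 and the 5S RNA forms the particle that binds MDM2, fell most.

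RPL5 (ENSG00000122406, chr1:92831983-92841924, plus strand, GRCh38) stood at 572.0, 563.1 and 558.9 CPM in H358 shRAD21 and at 722.1, 703.3 and 697.8 CPM in H358 shNC. The groups were narrow and far apart, with a log2 fold change of -0.33 ± 0.05, adjusted p = 0.000727. With any 1 library left out the adjusted p stayed at or under 0.00776. RPL11, its partner, had a log2 fold change of -0.18 ± 0.08 in H358, which did not pass (adjusted p = 0.208). RPS3A, a small-subunit protein near the mRNA exit, stood at 603.6, 624.1 and 626.7 CPM in H358 shRAD21 and at 741.9, 730.7 and 715.5 CPM in H358 shNC, again without overlap. Its log2 fold change was -0.24 ± 0.06, adjusted p = 0.0235, and 11.19% of its exon length overlaps SH3D19 on the other strand.

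RPL22 fell in H358 as it had in A549, and it was the 1 member called in the same direction in both knockdowns. It stood at 131.8, 130.8 and 137.9 CPM in H358 shRAD21 and at 152.1, 158.3 and 154.9 CPM in H358 shNC, a log2 fold change of -0.22 ± 0.06, adjusted p = 0.0261. RPL12, at the base of the stalk, fell by 0.23 on the log2 scale. RPL4, which lines the exit tunnel, fell by 0.20, and RPL3, near the peptidyl transferase centre, by 0.24. The groups of these 3 did not overlap. The calls of RPL22, RPL3 and RPS3A were lost with any 1 of the 6 H358 libraries left out (adjusted p up to 0.123, 0.194 and 0.0899). Those of RPL12 and RPL4 were lost without shNC replicate 1 or 2 or shRAD21 replicate 2 or 3 (up to 0.195 and 0.073).

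With 1 library left out, 1 to 4 members fell, and 3.87% to 4.48% of all genes passed in either direction. The fewest members, 1, fell without shNC replicate 1 or 2 or shRAD21 replicate 2 or 3. The number that fell was 30 when the 6 H358 libraries were fitted alone and 28 with GC content and length corrected, where 26% and 18% of all genes passed in either direction.

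Between the lines, the knockdown had a different effect on 9 members by the test of the difference itself (A549 change minus H358 change), 11.2% of the 80, against 17.6% of all genes. In all 9 the change was more positive in A549, where 9.94% of all genes were called more positive and 7.61% more negative. No member was called more negative in A549 in the main edgeR fit, by DESeq2 or by limma-voom. In the main fit 4 had an unadjusted p under 0.05 in that direction. With no filter on low counts 6 were called more negative, where 9.51% of all genes passed in either direction. Under library totals alone and with GC content and length corrected 1 was, where 17.7% and 21.2% passed. Without A549 shRAD21 replicate 3, 21 members were more positive and 19 more negative, and 37.5% of all genes passed in either direction. With each of the other libraries left out 2 or more members were more positive and 0 more negative, the fewest without H358 shRAD21 replicate 1. In those fits 11.4% to 13.6% of all genes passed. The 9 were RPL36A (0.56), RPS23 (0.47), RPL5 (0.42), RPL9 (0.40), RPS3A (0.39), RPS24 (0.30), RPL12 (0.29), RPS6 (0.26) and RPL7 (0.25), as differences of log2 fold changes. RPL5 had an adjusted p of 0.000741 for the difference: its log2 fold change was 0.09 ± 0.05 in A549, which did not pass, and -0.33 ± 0.05 in H358. RPS3A had 0.15 ± 0.06 in A549, not called, and -0.24 ± 0.06 in H358, with an adjusted p of 0.00521 for the difference. The differences of RPL5 and RPS3A were called with any 1 of the 12 libraries left out (adjusted p up to 0.00595 and 0.0247). The difference of RPL36A was lost without H358 shNC replicate 1 or shRAD21 replicate 1 (adjusted p up to 0.0585) and with GC content and length corrected (0.053), and that of RPS23 without H358 shNC replicate 2 or shRAD21 replicate 1 (up to 0.0616). Those of RPL12, RPL7, RPS24, RPL9 and RPS6 were lost in 8 to 11 of the 12 fits that leave out 1 library. Those of RPL7 (0.12), RPL9 (0.22) and RPS24 (0.10) were also lost with GC content and length corrected (adjusted p = 0.131, 0.059 and 0.317). RPS23 had 0.27 in A549 and -0.20 in H358, where it was not called (adjusted p = 0.0112 for the difference). RPS6, the substrate of S6 kinase, had 0.10 in A549 and -0.16 in H358, neither called on its own.

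Base composition moved with these differences. Across the 80 members, Spearman's rho between the log2 fold change and the GC content of the annotated transcripts was -0.452 in the A549 knockdown, 0.384 in the H358 knockdown, 0.343 when RAD21 was overexpressed and -0.521 for the line difference; over all genes it was -0.331, 0.184, 0.31 and -0.359. These are descriptions across genes that share the same libraries. In the A549 knockdown the 27 members of highest GC content (52.6% and above) had a median log2 fold change of -0.159 and the 27 of lowest GC content (46.8% and below) of 0.041. In H358 the medians were -0.047 and -0.115. Each library was also set against the midpoint of the altered and control group means. On that scale rho across the members was -0.516 and -0.524 in replicates 1 and 2 of A549 shRAD21 and 0.489 in replicate 3. It was 0.497, 0.387 and 0.388 in the A549 shNC libraries, so replicate 3 stood with the controls. In RAD21OE it was 0.627 in replicate 3 and -0.328 and 0.041 in replicates 1 and 2, against -0.18, -0.298 and -0.194 in EV. With GC content and length corrected in each library, rho was 0.241, 0.037 and -0.194 in the 3 comparisons. Beyond that correction, the part of base composition in the differences between the groups was not tested.

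**Figure D3:**
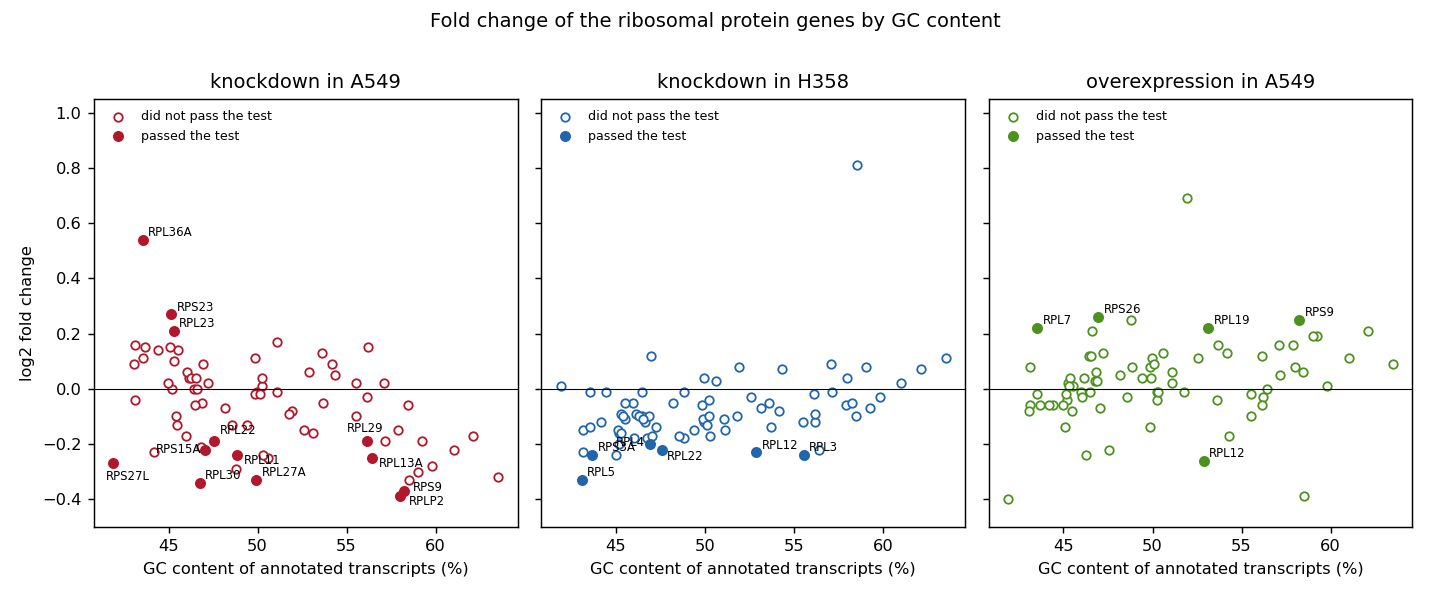
Log2 fold change of 77 of the 80 members tested (vertical axis) against the GC content of their annotated transcripts in percent (horizontal axis), 1 panel for each comparison; filled points passed the test and carry their names. In the A549 knockdown the points fall from left to right (rho -0.452) and in H358 and with overexpression they climb (0.384 and 0.343), while RPS27L, at 41.89% GC, fell in A549 against that slope.

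With overexpression of RAD21 in A549, 5 members rose and 1 fell, 7.5% of the 80, against 27.8% of all genes tested. By direction, 6.25% rose and 1.25% fell, against 14.1% and 13.7% of all genes. The libraries of 17 members (21.2%) lay wholly above EV and those of 4 (5.0%) wholly below, against 22.9% and 22.6% of all genes. The median was 0.036 for the members and -0.015 for all genes. Among those that rose were RPS26 (log2 fold change 0.26), RPS9 (0.25), RPL19 (0.22) and RPL7 (0.22). RPL12, of the stalk base, fell by 0.26.

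RPS26, which contacts the mRNA near its exit and is mutated in Diamond-Blackfan anaemia, stood at 298.5, 266.9 and 319.4 CPM in RAD21OE and at 243.1, 240.3 and 254.2 CPM in EV (adjusted p = 0.0291). RPL12 stood at 420.9, 400.9 and 472.8 CPM in RAD21OE and at 522.6, 494.5 and 535.0 CPM in EV, and neither gene had overlapping groups (adjusted p = 0.0261). RPS9 had 782.7, 731.0 and 892.1 CPM in RAD21OE, against 682.0, 629.4 and 717.6 CPM in EV. It was the 1 member that fell with the knockdown and rose with the overexpression in A549, and replicate 3 was the highest in both altered groups. RPL12 fell both here and in the H358 knockdown. No member passed in all 3 comparisons.

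None of the 6 calls held with every library left out in turn. Those of RPS26, RPS9, RPL19, RPL7 and RPL12 were lost with any 1 of the 3 EV libraries left out (adjusted p up to 0.116, 0.194, 0.156, 0.134 and 0.115). RPL19 and RPL7 were also lost without RAD21OE replicate 2 (0.0578 and 0.06), and RPL12 without RAD21OE replicate 1 or 2 (0.0511 and 0.135). RPS9 was also lost with GC content and length corrected (0.13, adjusted p = 0.0674). Without RAD21OE replicate 3, which stood apart, 6 members rose and 6 fell, and 34.8% of all genes passed in either direction. Without EV replicate 2 or 3 no member rose and none fell, and 13.7% and 17.1% of all genes passed.

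By subunit, most members of either passed in no direction. In the A549 knockdown 2 of 48 large-subunit members rose and 7 fell, and 1 of 32 small-subunit members rose and 4 fell, with median log2 fold changes of -0.056 and -0.022. In the H358 knockdown the large subunit had 0 higher and 5 lower and the small subunit 1 higher and 2 lower, with medians of -0.103 and -0.100. With overexpression the large subunit had 2 higher and 1 lower and the small subunit 3 higher and 0 lower, with medians of 0.033 and 0.052. Of the large and the small subunit 18.8% and 15.6% passed in the A549 knockdown, against 25.2% of all genes. In H358 10.4% and 9.38% passed, against 8.4%, and with overexpression 6.25% and 9.38%, against 27.8%. The difference between the subunits was not tested.

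By role, single members passed while their neighbours did not. Of the stalk, RPLP2 fell in A549 while RPLP0 (0.13), RPLP1 (0.01) and RPL12 (0.06) did not pass, and in H358 RPL12 fell while the log2 fold changes of RPLP0, RPLP1 and RPLP2 were -0.05, -0.10 and 0.04, none called. Of the 5S particle, RPL11 fell in A549 and RPL5 in H358. Of 9 members of the exit tunnel and its rim (RPL4, RPL17, RPL19, RPL22, RPL23A, RPL26, RPL31, RPL35 and RPL39), RPL22 fell in A549, RPL4 and RPL22 fell in H358 and RPL19 rose with overexpression. Of RPS2, RPS3, RPS15 and RPS23, at the mRNA entry and the decoding centre, RPS23 rose in A549 and none passed in H358 or with overexpression. Of 9 genes often mutated in Diamond-Blackfan anaemia, RPL11 fell in A549, RPL5 fell in H358 and RPS26 rose with overexpression. RPS27A, made as a fusion with ubiquitin, had log2 fold changes of 0.06, -0.18 and -0.03 in the 3 comparisons and passed in none. That 1 member of a group passed and another did not does not show that they differ.

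Paralogues whose symbols end in L are separate genes for near copies of their partners. The first 60 coding bases of 3 pairs show how far their reads can be told apart; capitals mark bases that differ within a pair, and the sequences are those of GENCODE 29.
RPS27L: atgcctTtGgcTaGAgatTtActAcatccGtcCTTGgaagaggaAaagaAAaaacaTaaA
RPS27: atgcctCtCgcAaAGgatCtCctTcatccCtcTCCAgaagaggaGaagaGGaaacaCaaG
RPL39L: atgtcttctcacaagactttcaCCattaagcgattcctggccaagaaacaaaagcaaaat
RPL39: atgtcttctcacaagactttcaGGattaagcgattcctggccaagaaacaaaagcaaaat
RPL36AL: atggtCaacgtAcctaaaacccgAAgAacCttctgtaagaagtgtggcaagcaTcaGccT
RPL36A: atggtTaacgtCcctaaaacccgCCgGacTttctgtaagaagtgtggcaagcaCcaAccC
RPS27L and RPS27 differ at 56 of 252 coding bases (77.8% identical), RPL36AL and RPL36A at 32 of 318 (89.9%) and RPL39L and RPL39 at 8 of 153 (94.8%). Of the 3 pairs, RPL39L and RPL39 are the most alike in coding sequence. Their merged exons are longer, 1060 bases for RPL39L and 2141 for RPL39. How reads were assigned within the pairs was not tested.

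RPS27L (ENSG00000185088, chr15:63125872-63158021, minus strand, GRCh38) stood at 116.1, 118.0 and 103.7 CPM in A549 shRAD21 and at 133.1, 138.8 and 135.4 CPM in A549 shNC, all knockdown libraries lower. RPS27 had a log2 fold change of 0.17 ± 0.15 there and did not pass (adjusted p = 0.442). In RAD21OE RPS27L was spread over 183.7, 132.7 and 108.5 CPM, against 194.0, 182.3 and 183.9 CPM in EV. The log2 fold change of -0.40 ± 0.14 did not pass (adjusted p = 0.0516); it passed without RAD21OE replicate 1 (-0.63, 0.000207) or replicate 3 (-0.24, 0.0289). In H358 RPS27L stood near 13 CPM in both groups, 13.38 ± 1.06 in shRAD21 and 13.29 ± 0.370 in shNC (SD, n = 3 each), with a log2 fold change of 0.01.

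RPL39L, known for its use in the male germ line, stood at 12.23, 9.207 and 14.65 CPM in A549 shRAD21 and at 13.36, 17.26 and 13.32 CPM in A549 shNC. The groups overlapped, and the log2 fold change of -0.29 did not pass (adjusted p = 0.157). RPL39 had 0.14 in the same comparison, also not called. RPL3L, the striated-muscle form of RPL3, had between 3 and 23 counts a library, 7 to 12 in A549 shRAD21 and 12 to 14 in A549 shNC, and no change was detectable at that depth. RPL3 stood at 1069, 1089 and 1304 CPM in A549 shRAD21 and at 1250, 1287 and 1164 CPM in A549 shNC, overlapping and not called.

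**Figure D4:**
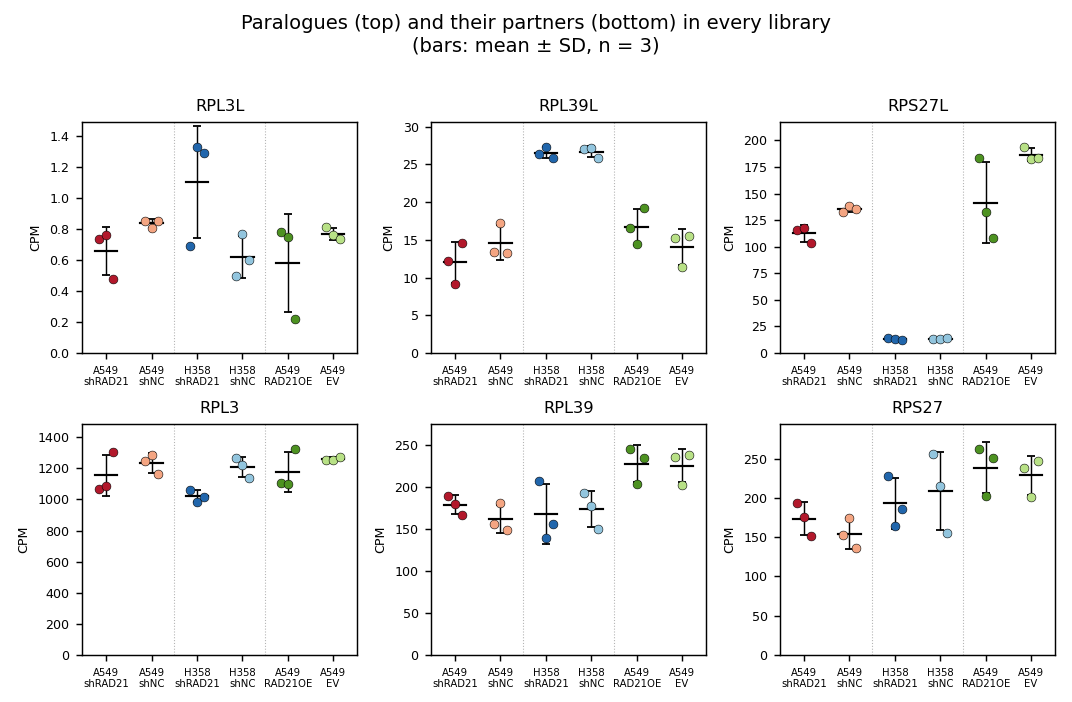
CPM in every library (points) with the mean (long line) and SD (bars) of each group of 3 for RPL3L, RPL39L and RPS27L (top) and their partners RPL3, RPL39 and RPS27 (bottom); the axes start at 0 and differ in scale. RPS27L averages 13.38 CPM in H358 shRAD21 and 112.6 CPM in A549 shRAD21, and its 3 RAD21OE libraries spread from 108.5 to 183.7 CPM.

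RPL36AL and RPL22L1, paralogues that the symbol rule leaves out, moved opposite to their partners in the A549 knockdown. RPL36AL stood at 69.73, 72.71 and 81.99 CPM in A549 shRAD21 and at 91.01, 96.95 and 87.72 CPM in A549 shNC, a log2 fold change of -0.30 ± 0.08 (adjusted p = 0.0135), where RPL36A rose. RPL22L1 stood at 91.38, 90.10 and 88.67 CPM in A549 shRAD21 and at 65.94, 64.50 and 66.32 CPM in A549 shNC. It rose by 0.46 ± 0.08 on the log2 scale (adjusted p = 0.000397), where RPL22 fell. In mouse, Rpl22 is known to hold down the expression of Rpl22l1. In H358, where RPL22 also fell, RPL22L1 stood at 12.69, 11.96 and 11.61 CPM in shRAD21 and at 9.714, 12.18 and 9.455 CPM in shNC; the groups overlapped and it did not pass (log2 fold change 0.20, adjusted p = 0.244). With overexpression RPL22 had a log2 fold change of -0.22 (adjusted p = 0.0819) and RPL22L1 of 0.08 (0.566).

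Levels also differed between the lines. In the control libraries of the knockdown, 19 members lay wholly higher in H358 than in A549, 38 wholly lower and 23 overlapped, with a median log2 ratio of H358 over A549 of -0.15; these levels are described without a test. At least 2-fold apart were 8 members. The same shares over all genes are not given here. These counts therefore do not set the members apart from other genes. RPS27L averaged 13.29 ± 0.370 CPM in H358 shNC and 135.8 ± 2.85 CPM in A549 shNC (SD, n = 3 each), 10.2-fold lower in H358. RPS16 averaged 379.9 ± 24.2 CPM in H358 shNC and 1306 ± 75.4 CPM in A549 shNC, and RPS19, the gene most often mutated in Diamond-Blackfan anaemia, 494.8 ± 34.1 CPM in H358 shNC and 1438 ± 79.3 CPM in A549 shNC. RPS23, RPS13, RPL13A and RPL15 were also lower in H358, with log2 ratios of -1.19, -1.11, -1.02 and -1.01. RPL9 alone of the 8 was higher in H358, at 589.2 ± 25.3 CPM in H358 shNC and 127.1 ± 8.57 CPM in A549 shNC.

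**Figure D5:**
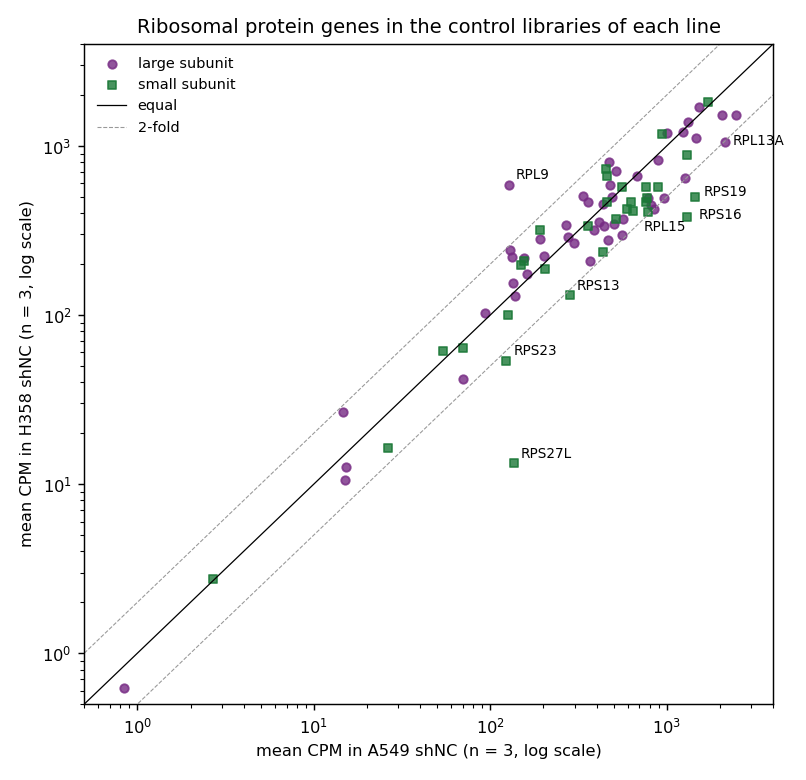
Mean CPM of each member with counts in H358 shNC (vertical axis, log scale) against A549 shNC (horizontal axis, log scale), n = 3 libraries each; the solid line marks equal levels and the dashed lines 2-fold differences. RPS27L (13.29 against 135.8 CPM) and RPL9 (589.2 against 127.1 CPM) lie farthest from the line.

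Near-identical copies limit what the level of some members means. The annotation holds 1119 processed pseudogenes named for a member, of which 76 members have at least 1, and 522 of the 1119 had no count in any library. They held 3.04% to 4.28% of the counts of members and pseudogenes together in a library. For a few members the share was large: the pseudogenes named for RPL9 took 32.2% of the family's counts in H358 shRAD21 and 31.8% in H358 shNC, and 64.6% in A549 shRAD21 and 67.2% in A549 shNC, so the difference of RPL9 between the lines is uncertain. For RPS10 the share was 62.1% in A549 shRAD21 and 53.6% in A549 shNC, for RPS28 41.7% and 46.3%, and for RPL39 25.3% and 24.9%. For RPS27L, which has none, and for RPLP2 and RPS9 it was below 2% in every group.

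Other genes of translation were read from lists chosen with earlier results of these data known. Of 20 translation factors and other genes whose mRNAs carry a pyrimidine tract, 19 were tested: 4 rose and 1 fell in the A549 knockdown, 0 rose and 5 fell in the H358 knockdown, and 0 rose and 3 fell with overexpression. That is 26.3%, 26.3% and 15.8% of the 19, against 25.2%, 8.4% and 27.8% of all genes. PABPC1, the cytoplasmic poly(A)-binding protein, averaged 1722 ± 148.0 CPM in A549 shRAD21 and 1229 ± 19.4 CPM in A549 shNC (adjusted p = 6.09e-06), and 1799 ± 45.0 CPM in H358 shRAD21 and 2127 ± 62.1 CPM in H358 shNC (adjusted p = 0.0152). It thus rose in A549 and fell in H358, and the difference between the lines was 0.73 on the log2 scale (adjusted p = 8.76e-06). EIF4B fell by 0.38 and EEF1A1 by 0.34 on the log2 scale in H358. Of 7 ribosomal proteins outside the symbol rule, 1 rose (RPL22L1) and 2 fell (FAU, -0.31, and RPL36AL) in the A549 knockdown. FAU stood at 121.7, 115.6 and 158.9 CPM in shRAD21 and 169.5, 175.6 and 147.2 CPM in shNC, overlapping through shRAD21 replicate 3. None of the 7 passed in H358, and 1 rose (RPL7L1, 0.38) with overexpression. Of 8 regulators, EIF4EBP1, the translation repressor that mTOR switches off, fell in the A549 knockdown (-0.59). It stood at 44.83, 43.12 and 73.95 CPM in shRAD21, with replicate 3 near the controls, which had 86.07, 81.9 and 74.75 CPM. None of the 8 passed in H358, and with overexpression 4 rose and 2 fell. Those with the smallest adjusted p were RPTOR (0.48) and MTOR (0.49) among the rises and MDM2 (-0.65) and RPS6KB1 (-0.41) among the falls.

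With overexpression, 5 of the 80 cytosolic members rose and 1 fell (median 0.036), and of the mitochondrial ribosomal proteins, encoded by 78 nuclear genes of which 77 were tested, 30 rose and 1 fell (40.3% called, median 0.234). Of all genes 14.1% rose and 13.7% fell, 27.8% in all, and of genes with at least 100 CPM 40.2% passed. The mitochondrial members with the smallest adjusted p among those that rose were MRPL52 (0.63) and MRPL58 (0.55). In the A549 knockdown 6 mitochondrial ones rose and 6 fell, and in the H358 knockdown 1 rose (MRPL49, 0.32) and 0 fell, which is 15.6% and 1.3% of the 77, against 25.2% and 8.4% of all genes. The difference between the sets of genes was not tested. Fits without RAD21OE replicate 3, which stood apart, or with GC content and length corrected are not given for the mitochondrial set.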

How the data were processed

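RNA was measured by sequencing of TRIzol-extracted total RNA with a VAHTS library kit, per the labels' protocols; neither strandedness nor mRNA selection is stated there. The authors deposited whole-number read counts per gene in 2 tables, 12 knockdown and 6 overexpression libraries (0 columns without a sample). Tools listed in the submitters' processing notes, without role or order, are HISAT2 (2.0.5), fastp and featureCounts (1.5.0-p3), with the build hg38; how reads with several matches were counted is not stated. All 58735 rows equal GENCODE 29 in position and length.

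Each table was fitted apart with edgeR 4.0.16 in R 4.3.3: filterByExpr, TMM factors, 1 mean per group, quasi-likelihood F-test, two-sided, Benjamini-Hochberg over the 18939 or 15462 genes tested. edgeR's common biological coefficient of variation came to 0.0864 (12 libraries) and 0.0981 (6 libraries). CPM are scaled by TMM; log2 levels of single libraries use a prior count of 2. GC content is that of all annotated transcripts of a gene. Alternatives used DESeq2 1.42.0, limma 3.58.1, other scalings and filters, offsets for GC content and length, pseudogene counts added to their members, a replicate block, the libraries of 1 line alone, and each library left out. The scripts were tested on simulated data. Figures were drawn with matplotlib 3.10.9 in Python 3.11.15. Members, lists and tests were chosen with earlier results of these data known. Genes named are RAD21; paralogues ending in L and their partners; up to 6 rises and 6 falls per comparison; members of the role groups; differences between lines (at most 6 by smallest adjusted p, the others of the 9 added after their values were seen, as were MRPL52, MRPL58, MRPL49, RPS13, RPS16, RPL15, RPL8, RPL22L1 and HNRNPH2); the highest members by CPM; and up to 2 rises and 2 falls of each other list. Some genes that enter the counts are not reported here by name, and 3 of them are left out of the figures that name members.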

Additional observations from a re-analysis of the deposited data

Results flagged for a closer look

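For 9 members the change with the knockdown differed between A549 and H358 by the test of the difference itself (edgeR's quasi-likelihood test, adjusted over all genes), each more positive in A549. As A549 minus H358 on the log2 scale, the difference was 0.56 for RPL36A, 0.47 for RPS23, 0.42 for RPL5, 0.40 for RPL9, 0.39 for RPS3A, 0.30 for RPS24, 0.29 for RPL12, 0.26 for RPS6 and 0.25 for RPL7. The adjusted p ran from 0.000741 for RPL5 to 0.0493 for RPS6. The 9 are 11.2% of the 80 members tested, against 17.6% of all genes. More positive in A549 were 9.94% of all genes, and more negative 7.61%. Only the differences of RPL5 and RPS3A were called with any 1 of the 12 libraries left out. The lines also differ in how far RAD21 fell (to 47.4% of its control in A549 and 70.3% in H358), and the part of that in the 9 differences was not tested. RPL36A and RPS23 were called in A549 and not in H358, RPL5, RPS3A and RPL12 were called in H358 and not in A549, and RPL9, RPS24, RPS6 and RPL7 were called in neither knockdown alone.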

How the results depend on the processing

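Depth limits RPL3L, RPS10 and RPL10L, and near-identical copies limit RPL9, RPS28 and RPL39. Named pseudogenes also took 20.1% of the family's counts for RPS2 in H358 shNC and 18.9% for RPS7 in A549 shNC. Exons of RPL10 overlap genes on the other strand over 52.7% of their length. What limits the other members was not tested, and neither were the causes of the changes below. In the A549 knockdown 3 members rose and 11 fell. Under library totals alone this was 1 and 21, and with no filter 24 fell. With the 6 libraries of the line 1 rose and 2 fell. With GC content and length offsets 12 rose, or 14 with the replicate block added. Of all genes 25.2% passed in either direction in the main fit, and 25.1%, 12.8%, 19.2%, 29.4% and 28.1% in these alternatives in turn. In the H358 knockdown 7 fell. This became 3 under library totals alone, 3 with the replicate block and 28 with the offsets. It became 27 with the offsets and the block, and 30 with the 6 libraries of the line. Of all genes 8.4% passed in the main H358 fit, and 8.58%, 5.93%, 18%, 16.8% and 26% in these alternatives in turn. With overexpression 5 rose and 1 fell. Members that rose numbered 3 under library totals alone, 1 with at least 10 CPM in 3 libraries, 3 with DESeq2's Wald test, 8 with the offsets and 11 with the offsets and the block. Members that fell numbered 2 with no filter, 3 with at least 10 CPM, 2 with DESeq2's Wald test and 2 with limma-voom. They numbered 2 with the block, 4 with the offsets and 9 with the offsets and the block. Over all genes 27.8% passed in the main fit, 27.2% under library totals alone, 14.5% with no filter and 31.7% with at least 10 CPM. The share was 24.7% with DESeq2's Wald test, 27.9% with limma-voom, 28.4% with the block, 39.1% with the offsets and 39.4% with the offsets and the block. For the difference between lines 9 were higher and 0 lower. Higher members numbered 4 under library totals alone, 17 with the offsets and 22 with the offsets and the block. Lower ones numbered 1, 1 and 1 there and 6 with no filter. Over all genes 17.6% passed for the difference in the main fit and 17.7% under library totals alone. It was 21.2% of all genes with the offsets, 20% with the offsets and the block and 9.51% with no filter.

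Median log2 fold changes moved less: under library totals alone that of the difference between lines was -0.057, against 0.021. The median of the large minus that of the small subunit was -0.023 and -0.024 in H358 with the offsets, without and with the block, against -0.003, and 0.001 and 0.002 for the difference between lines, against 0.088. With each library left out in turn, 1 to 14 members rose and 2 to 34 fell in A549 (median -0.085 to -0.011), 0 to 1 rose and 1 to 4 fell in H358 (median -0.151 to -0.049), and 0 to 6 rose and 0 to 6 fell with overexpression (median -0.004 to 0.079). For the difference 2 to 21 were higher and 0 to 19 lower (median -0.021 to 0.071). The share of all genes that passed ran from 17.6% to 43.0%, 3.87% to 4.48%, 13.7% to 34.8% and 11.4% to 37.5%. The large minus small median ran from -0.072 to -0.012, -0.023 to -0.004, -0.021 to 0.022 and 0.048 to 0.097. With the offsets, without and with the block, RPL29 in A549 was 0.01 and 0.00, RPS15 in A549 rose at 0.12 and 0.12, and RPL13A differed between the lines at 0.22 and 0.22. Replicate numbers did not pair the samples: correlations of same-numbered deviations lay between -0.037 and 0.067.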
